A study of Mus musculus with 6 samples.

Results

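The Obox (oocyte-specific homeobox) genes were followed in fully grown mouse oocytes with and without Prdm10. The 6 members were taken by name, Obox1, Obox2, Obox3, Obox5, Obox6 and Obox7, and make up 6 of the 27179 gene identifiers counted. They are also all the identifiers with counts that carry an Obox name. The reference table of RefSeq, NCBI's curated gene set, lists 53 mouse Obox genes, of which 6 are protein coding and 47 are pseudogenes. The 6 coding genes are the members described here. GENCODE release M21, the gene set used below for transcript sequences, lists 55 Obox genes, of which 47 are pseudogenes.

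Homeobox genes encode transcription factors that bind DNA through a homeodomain, a compact fold of helices. Obox genes are a rodent branch of the paired-like homeobox genes, related to Crx, and are known for transcripts that accumulate in the oocyte and for a role in switching on the genome of the early embryo. Obox1, Obox2, Obox5 and Obox7 are known as maternal members, whose transcripts the oocyte stores, while Obox3 and Obox6 are better known for transcription in the embryo after fertilization.

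RNA was measured in germinal vesicle (GV) oocytes, the fully grown stage before meiosis resumes. In the knockout group a floxed exon 5 of Prdm10, a gene for a PRDM family zinc finger factor, was deleted by Cre recombinase driven from Zp3, a promoter active in growing oocytes, so that the loss was specific to the oocyte and began only with oocyte growth. The other group was wildtype, and whether those oocytes carried floxed alleles or Cre, and the strain and age of the mice, is not stated in the labels. There were 3 libraries per genotype, each from a pool of about 10 oocytes, sequenced from one end. The labels call the replicates biological without saying whether the pools came from separate mice, so a p-value speaks only of the spread between pools, which may be technical.

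Libraries held between 22492228 and 38831227 counts. Rank correlations across genes were 0.995 to 0.997 among the knockout libraries and 0.996 between wildtype replicates 2 and 3, but 0.976 and 0.975 between wildtype replicate 1 and the other two, so wildtype replicate 1 stood apart from its group. Counts of called genes are therefore also given without it, a setting under which 34.4% of all genes tested were called (16.7% higher and 17.7% lower in the knockout). Prdm10 itself was present at 2.80, 3.82 and 3.05 CPM (counts scaled to a common library size after a trimmed-mean adjustment) in the knockout libraries and at 10.4, 23.1 and 23.0 CPM in the wildtype libraries, which matches the labels. The fitted log2 fold change of Prdm10 was -2.54 with SE 0.326 (edgeR's quasi-likelihood F test, adjusted p = 0.00436). The 10 oocyte markers were Zp1, Zp2, Zp3, Gdf9, Bmp15, Figla, Ddx4, Oosp1, Nlrp5 and Dppa3. They summed to 24510 to 26280 CPM in the knockout and 20660 to 25720 CPM in the wildtype, in keeping with the labelled cell type. Of these 10 markers 0 were called, beside 11.2% of all genes tested. Without wildtype replicate 1 it was 1 higher and 2 lower, beside 16.7% and 17.7% of all genes.

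The members lie on chromosome 7 and resemble one another closely, which bears on how reads can be assigned to them. In the GRCm38 assembly, the build named by the submitters, they are spread over 1180 kb, in the order Obox7 (chr7:14659708-14665996), Obox2 (chr7:15388851-15398545), Obox1 (chr7:15547257-15556846), Obox3 (chr7:15625306-15639777), Obox5 (chr7:15750370-15759274) and Obox6 (chr7:15833250-15839679). Obox3 is on the minus strand and the others are on the plus strand. A stretch of 109 coding bases from the homeobox, the part that encodes the homeodomain, shows how near the copies are to each other. It was the last block of the aligned GENCODE release M21 coding sequences of at least 100 bases in which no member had a gap. A capital marks a base unlike the commonest base at that position. Where bases were equally common, the first in the alphabet was taken as the commonest.
Obox1: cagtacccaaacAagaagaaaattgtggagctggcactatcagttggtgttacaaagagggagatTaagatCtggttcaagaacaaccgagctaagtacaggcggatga
Obox2: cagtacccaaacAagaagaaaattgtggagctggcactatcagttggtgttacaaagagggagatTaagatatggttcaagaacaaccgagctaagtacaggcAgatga
Obox3: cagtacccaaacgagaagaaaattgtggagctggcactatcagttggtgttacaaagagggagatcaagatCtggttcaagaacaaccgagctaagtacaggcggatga
Obox5: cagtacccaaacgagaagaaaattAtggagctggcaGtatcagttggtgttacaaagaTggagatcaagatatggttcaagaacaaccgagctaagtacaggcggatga
Obox6: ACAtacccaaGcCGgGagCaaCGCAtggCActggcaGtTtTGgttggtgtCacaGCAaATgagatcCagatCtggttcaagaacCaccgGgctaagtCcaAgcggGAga
Obox7: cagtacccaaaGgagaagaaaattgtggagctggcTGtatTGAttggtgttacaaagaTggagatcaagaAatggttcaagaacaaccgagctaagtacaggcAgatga
At 38 of the 109 positions at least 1 member differed from the others. Obox1, Obox2 and Obox5 each carried 3 bases unlike the commonest, Obox3 carried 1, and Obox7 carried 9. Some of these rest on ties, among them the 1 capital of Obox3, so small differences between these counts carry no meaning. Obox6 carried 32, so it was the member that stood apart.

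Over whole coding sequences Obox6 was again the most distant member, and Obox1 and Obox2 were the closest pair. Obox1 and Obox2 were identical at 98.5% of 456 aligned bases and differed at 7 of them. Obox5 and Obox7 were identical at 95.9% of 657 aligned bases, and Obox1 and Obox5 at 95.5% of 615. Obox3 was 93.0% to 93.9% identical to the members other than Obox6. Obox6 was 76.1% to 80.1% identical to each of the others. The annotated reading frame of Obox2 was 456 bases long against 615 in Obox1. It has 1 base fewer than Obox1 just ahead of the stretch shown and ends with the last base of that stretch, in another frame than Obox1. In this reading frame the stretch thus does not encode the homeodomain residues that it encodes in Obox1. Coding sequences were those of each member's longest coding transcript, and Obox2 has 4 annotated transcripts.

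How much of each transcript could identify its gene was measured with windows of 50 bases, each searched on both strands in the transcripts of all other GENCODE M21 genes. In Obox1 42.6% of the windows occurred in no other gene, and in Obox2 34.8%. The figure was 78.9% in Obox7, 79.8% in Obox3, 81.9% in Obox5 and 94.98% in Obox6. Thus reads from most positions of Obox1 and Obox2 could not be told from those of another gene at this length, while most positions of the other members were distinctive.

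The sharing was concentrated in a pair of members. Obox1 and Obox2 had 1033 windows in common, 56.4% of those of Obox1 and 62.7% of those of Obox2. Obox5 and Obox7 had 280 in common, 13.0% and 17.1% of theirs. Obox3 shared its windows mainly with annotated pseudogenes, the most with Obox3-ps3 (14.5% of its windows). None of these pseudogenes had a count row of its own. In the coding part of the longest coding transcript 59.7% of Obox1 windows and 63.9% of Obox2 windows were unique, and in the part after it 44.8% and 34.7% were. In Obox3 the reverse held, with 36.1% unique in the coding part and 95.3% after it. The way the authors treated reads that map to several places is not stated in the labels, so single values of Obox1 and Obox2 are uncertain and their sum is given as well.

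**Figure D1:**
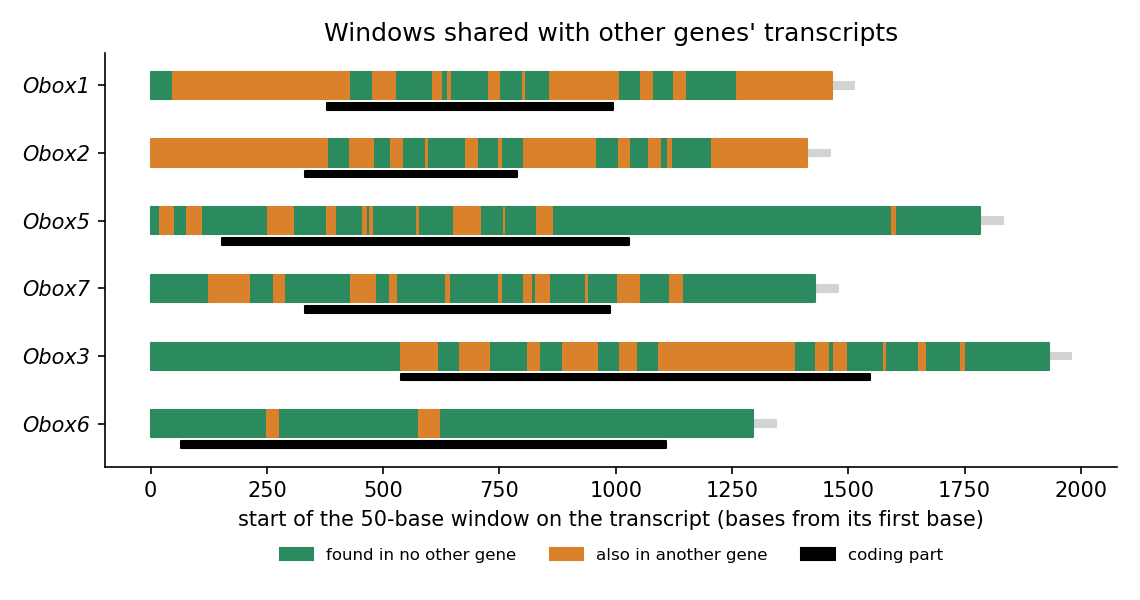
Windows of 50 bases along the longest coding transcript of each member, by the position of their first base (x axis, bases). Green windows occur in no other gene's transcripts, orange ones also occur in another gene, and the black bar is the coding part; Obox1 and Obox2 are orange over most of their length and Obox6 is almost wholly green.

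The promoters of the members were also related. The RefSeq promoter table (GRCm38.p6, 250 bases before to 50 bases after each annotated start) held 5 of the 6 members, all but Obox6. The 250 bases before the start of Obox1, Obox5 and Obox3 are shown to compare 2 maternal members with 1 embryonic member, and capitals mark runs of at least 20 bases that all 3 have.
Obox1 (chr7:15547007-15547256, plus strand): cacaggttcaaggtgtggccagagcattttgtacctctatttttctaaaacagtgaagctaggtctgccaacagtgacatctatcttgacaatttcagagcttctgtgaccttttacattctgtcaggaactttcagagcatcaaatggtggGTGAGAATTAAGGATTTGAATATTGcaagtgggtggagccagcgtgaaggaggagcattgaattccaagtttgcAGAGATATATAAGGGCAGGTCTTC
Obox5 (chr7:15750120-15750369, plus strand): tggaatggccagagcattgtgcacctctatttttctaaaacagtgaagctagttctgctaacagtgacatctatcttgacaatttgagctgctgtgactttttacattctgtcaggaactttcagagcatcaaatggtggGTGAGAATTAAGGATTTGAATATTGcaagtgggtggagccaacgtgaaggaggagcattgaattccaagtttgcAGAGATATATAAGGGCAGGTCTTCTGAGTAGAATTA
Obox3 (chr7:15639778-15640027, minus strand): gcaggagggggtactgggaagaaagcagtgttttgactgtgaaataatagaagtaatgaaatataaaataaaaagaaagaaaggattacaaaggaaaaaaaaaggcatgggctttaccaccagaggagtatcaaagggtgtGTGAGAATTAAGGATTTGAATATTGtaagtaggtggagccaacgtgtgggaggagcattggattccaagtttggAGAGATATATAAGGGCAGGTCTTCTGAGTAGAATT
The first capital run, 25 bases long, lay in all 5 members and in no other gene of the table of 27025 genes. The second run, close to the start, holds the motif TATATAA, of the kind that places the start of transcription. Searched on both strands, it began 19 bases before the start of Obox1, 30 before that of Obox3, 31 before that of Obox5 and 5 before that of Obox7. The motif lay in a run of 42 bases that Obox1, Obox3, Obox5 and Obox7 have in common and no other gene of the table has. It was absent from the Obox2 window, and 3.84% of all genes in the table have it in a window of this length. The 25-base run began 98 bases before the start of Obox1 but 1 base before that of Obox2. The Obox2 window thus ends before the place where the motif would lie if spaced as in Obox1, and the sequence there was not searched.

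The first capital run was part of a run of 44 bases in the 4 maternal members, which in the table was found in those 4 genes alone. At 44 bases it is slightly longer than the 42-base run that 3 of them share with Obox3.
Maternal run: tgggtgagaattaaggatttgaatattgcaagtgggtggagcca
It holds CANNTG (the E-box, which reads alike on both strands; N is any base) at 1 place. The windows of Obox1, Obox5 and Obox7 each had 2 E-boxes and that of Obox2 had 4, while the Obox3 window had 0. The Obox2 sites 222 and 191 bases before its start lay upstream of the sequence that the Obox1 window covers. The counts of Obox1 and Obox2 thus differ with where their starts are annotated. Since 75% of all promoters in the table have at least 1 E-box, its presence is common. TAATCC, a site bound by paired-like homeodomains, occurred only in the Obox3 window, on the reverse strand, and in 8.14% of all genes. TAATTG, an element bound by the oocyte homeobox factor NOBOX, occurred in the window of no member and in 9.22% of all genes. The aligned parts of the Obox1 and Obox2 windows, 203 bases, were identical, those of Obox5 and Obox7 were 97.1% identical over 274 bases, and those of Obox1 and Obox3 74.7% over 281.

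The maternal members were among the most abundant transcripts of the oocyte, and Obox3 and Obox6 were close to absent. By mean CPM in wildtype oocytes, Obox2 ranked 38th of 27179 genes, Obox5 50th, Obox1 101st and Obox7 854th, whereas Obox3 ranked 14033rd and Obox6 14377th. The 6 members together took 0.433%, 0.458% and 0.452% of all counts in wildtype replicates 1 to 3. Of those Obox counts, Obox3 and Obox6 together made up 0.0232%, 0.0170% and 0.0138%, that is 39, 21 and 14 counts. The 95% Wilson intervals of these last shares ran from 0.0170% to 0.0317%, from 0.0111% to 0.0260% and from 0.00821% to 0.0231%, and cover counting error only.

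Levels were compared between members after division by transcript length. Per kilobase of the longest annotated transcript, Obox2 stood at 1204 ± 132 CPM in wildtype (SD, n = 3), Obox5 at 821 ± 51.0, Obox1 at 649 ± 54.4 and Obox7 at 161 ± 11.9. Obox6 stood at 0.264 ± 0.102 and Obox3 at 0.192 ± 0.0648 on the same scale. The wildtype libraries of Obox2, Obox5, Obox1 and Obox7 did not overlap from one of these genes to the next, while those of Obox6 and Obox3 did. In the knockout libraries Obox5 (636 to 784 CPM per kilobase) and Obox1 (575 to 677) overlapped.

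The order of Obox1 and Obox5 depended on which length was used. When counts were divided by the number of positions with a unique window, as would hold if shared reads had been dropped, Obox1 reached 1646 ± 138 CPM per kilobase in wildtype and Obox5 970 ± 60.3. Obox2 (3367 ± 370) stayed above both and Obox7 (209 ± 15.4) below both. The difference between the maternal members and Obox3 (0.339 ± 0.114) or Obox6 (0.289 ± 0.111) stayed wide on that scale too.

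Loss of Prdm10 was followed by no called change in any member. Of 14957 genes with enough counts to be tested, 1676 (11.2%) were called at an adjusted p under 0.05, the threshold after Benjamini-Hochberg adjustment over all genes, with 798 lower (5.34%) and 878 higher (5.87%) in the knockout. All 6 members were tested, and 0 of 6 were called. Among the 2419 genes of at least 100 CPM on average, the range in which the maternal members lie, 5.42% were called. At such background shares a count of 0 among 6 genes does not set the members apart. The genotypes' libraries overlapped in all 6 members, while they did not overlap in 40.2% of all genes tested. The median log2 fold change was -0.04 over the 4 maternal members, 0.17 over Obox3 and Obox6, and -0.002 over all genes tested. Levels are relative to the scaled library, so a change shared by all transcripts of an oocyte would not show. As pools were measured whole, fewer transcripts of a gene per oocyte and a smaller number of oocytes that hold them cannot be told apart.

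Obox2, the most abundant member, was present at 1546, 1775 and 1883 CPM in knockout replicates 1 to 3 and at 1536, 1891 and 1845 CPM in wildtype replicates 1 to 3. In both genotypes the first replicate was the lowest, and the ranges covered nearly the same span. Its fitted log2 fold change was -0.02 (SE 0.136, adjusted p = 0.941), with a 95% interval of the fold from 0.795 to 1.23.

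Obox1, its near-identical copy, was present at 870, 1004 and 1023 CPM in the knockout libraries and at 890, 1049 and 1005 CPM in the wildtype libraries. Its pattern over libraries was that of Obox2, with the first replicate of each genotype lowest. The log2 fold change was -0.02 (SE 0.125, adjusted p = 0.922), and the interval of the fold ran from 0.806 to 1.20. Obox1 and Obox2 summed before the fit gave -0.02, a value that does not depend on how reads were split between the pair. If shared reads were dropped instead, they are missing from the sum too.

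Obox5 was the maternal member with the largest fitted difference. It was present at 1165, 1346 and 1435 CPM in the knockout libraries and at 1396, 1562 and 1553 CPM in the wildtype libraries. Only knockout replicate 3 exceeded the lowest wildtype library, which was the replicate 1 that stood apart. The log2 fold change was -0.19 (SE 0.125, adjusted p = 0.342), with an interval of the fold from 0.716 to 1.07.

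The call for Obox5 turned on wildtype replicate 1. Without that library the log2 fold change of Obox5 was -0.24 with adjusted p = 0.0262 (edgeR), a call in the lower direction, beside 17.7% of all genes tested. limma-voom with sample quality weights, which gives less weight to libraries that deviate, also called it, at -0.20 with adjusted p = 0.0196, and 20.3% of all genes were called lower there. The other 13 alternatives called 0 of 6 members, and in all 15 the value of Obox5 was below 0, from -0.27 to -0.11.

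Obox7, the least abundant maternal member, was present at 204, 240 and 241 CPM in the knockout libraries and at 219, 253 and 242 CPM in the wildtype libraries. As in the other maternal members the first replicate of each genotype was lowest. The log2 fold change was -0.06 (SE 0.124, adjusted p = 0.770), and the interval of the fold ran from 0.786 to 1.17. For the 4 maternal members the intervals thus reach down to folds between 0.716 and 0.806 and up to between 1.07 and 1.23.

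Obox3 was counted 18, 16 and 19 times in the knockout libraries and 25, 8 and 9 times in the wildtype libraries, that is at 0.531, 0.428 and 0.503 CPM and at 0.600, 0.308 and 0.412 CPM. The knockout values all lay within the wildtype range. The log2 fold change was 0.10 (SE 0.349, adjusted p = 0.871), with an interval of the fold from 0.613 to 1.88. Obox6 was counted 21, 12 and 13 times against 14, 13 and 5 times, at 0.619, 0.321 and 0.344 CPM in the knockout and 0.336, 0.501 and 0.229 CPM in the wildtype. Both genotypes spread over a similar range, and the log2 fold change was 0.25 (SE 0.430, adjusted p = 0.732), with an interval of the fold from 0.596 to 2.37. With so few counts both intervals are wide.

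**Figure D2:**
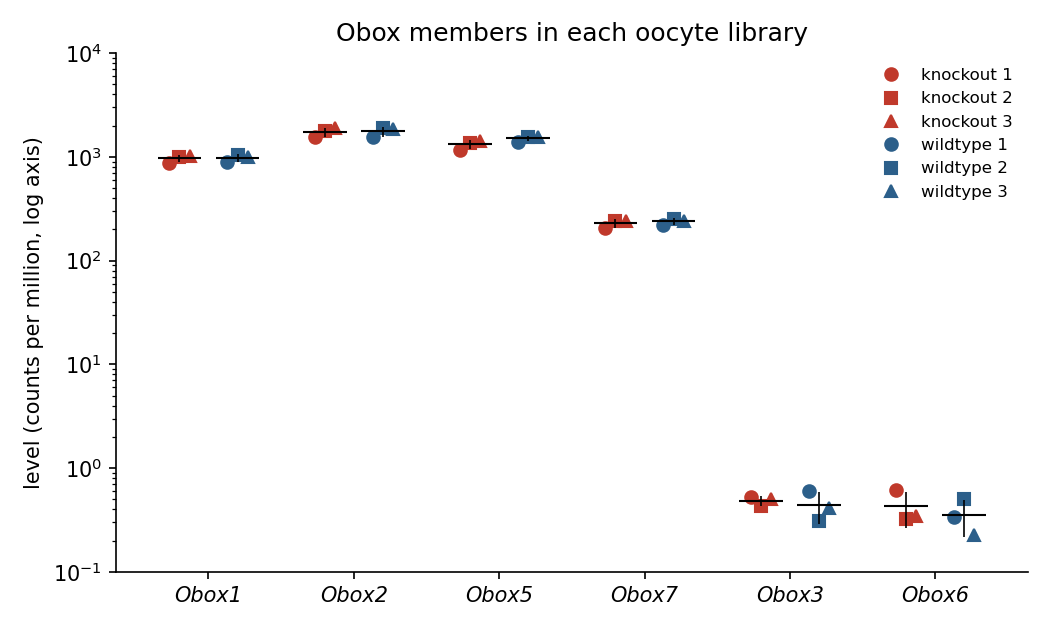
Level of each member (y axis, CPM on a log axis) in every library, red for knockout and blue for wildtype, with the mean as a horizontal bar and 1 SD as a vertical bar. The 4 maternal members sit between 204 and 1891 CPM and Obox3 and Obox6 between 0.229 and 0.619, and in each gene the red and blue points overlap.

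**Figure D3:**
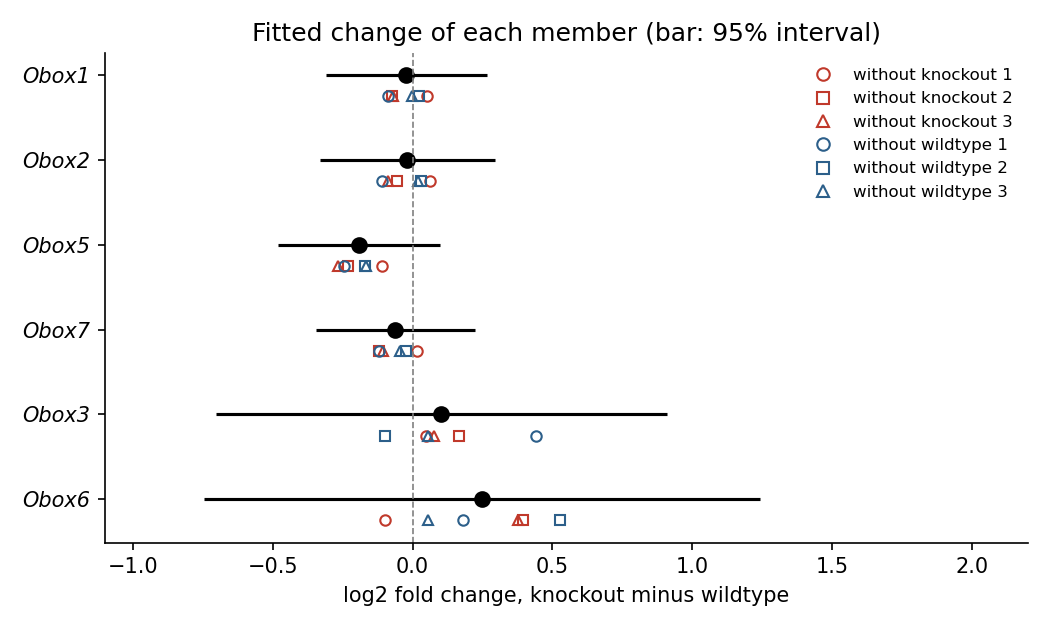
Fitted log2 fold change of each member, knockout minus wildtype (x axis), as a black point with its 95% interval, and the value after leaving out each library in turn as open symbols. All 6 intervals include 0; the open symbols of Obox5 are all below 0 and those of the other members fall on both sides of it.

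Summed over all members, the Obox count came to 3787, 4365 and 4583 CPM in the knockout libraries and 4041, 4755 and 4646 CPM in the wildtype libraries. The means were 4245 ± 411 and 4481 ± 385 CPM (SD, n = 3), a ratio of 0.947, and the libraries overlapped. This difference was smaller than the spread between replicates. The share of the library taken by Obox counts was 0.381%, 0.433% and 0.456% in the knockout, against the wildtype values above. Obox5 and Obox7 summed before the fit gave a log2 fold change of -0.17.

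The balance among the maternal members was compared by their shares of the Obox counts in a library, which do not depend on how libraries are scaled. Obox5 made up 30.8%, 30.8% and 31.3% of the Obox counts in the knockout libraries and 34.5%, 32.9% and 33.4% in the wildtype libraries. The groups did not overlap, and the mean was lower by 2.64 percentage points in the knockout. For scale, the levels of 40.2% of all genes tested did not overlap between genotypes. The exact two-sided permutation test gave p = 0.1, the smallest that 3 against 3 can give, and 0.2 after adjustment over the 6 members' shares, so the difference did not pass a threshold of 0.05.

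The shares of Obox2 and Obox1 were higher in the knockout, though their levels were not, with a fitted log2 fold change of -0.02 for each. Obox2 made up 40.8%, 40.7% and 41.1% in the knockout and 38.0%, 39.8% and 39.7% in the wildtype (1.70 percentage points higher). Obox1 made up 23.0%, 23.0% and 22.3% against 22.0%, 22.1% and 21.6% (0.869 points higher). In both the groups did not overlap, again with exact p = 0.1 and an adjusted 0.2. Obox7 made up 5.39%, 5.49% and 5.25% against 5.41%, 5.32% and 5.22%, which overlapped (exact p = 0.5). Since the shares of a library sum to 100%, these are not independent results. Leaving out wildtype replicate 1 brought the difference of Obox5 to -2.17 points and that of Obox2 to 1.13 points. Over the 6 libraries left out in turn the differences lay between -3.02 and -2.17 for Obox5 and between 1.13 and 2.001 for Obox2.

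Ratios between members are made of the same counts as the shares, so they restate them and add no separate result. There were 0.754, 0.758 and 0.762 Obox5 counts per Obox2 count in the knockout libraries and 0.909, 0.826 and 0.842 in the wildtype libraries. Against Obox1 the ratio of Obox5 was 1.34, 1.34 and 1.40 in the knockout and 1.57, 1.49 and 1.55 in the wildtype. The ratio of Obox7 to Obox5 was 0.175, 0.178 and 0.168 against 0.157, 0.162 and 0.156. All 3 ratios, each of which includes Obox5, did not overlap between genotypes (exact p = 0.1 each, the smallest possible), beside 40.2% of all genes tested by level. The ratio of Obox1 to Obox2, the pair whose reads could be divided between them, overlapped, at 0.563, 0.566 and 0.543 against 0.579, 0.555 and 0.544 (exact p = 0.9). Whether the unequal sharing of sequence among the members has a part in the ratios that include Obox5 was not tested.

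**Figure D4:**
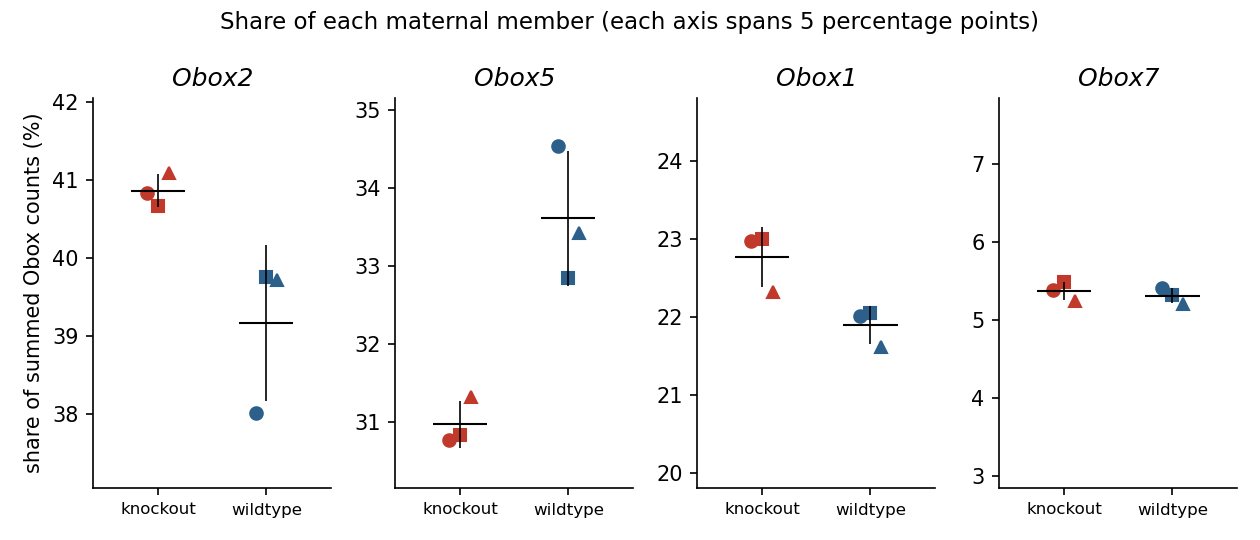
Share of each maternal member in the summed Obox counts (y axis, percent; each panel spans 5 percentage points and does not start at 0), with knockout libraries in red, wildtype in blue, the mean as a horizontal bar and 1 SD as a vertical bar. Obox5 is at 30.8% to 31.3% in the knockout and 32.9% to 34.5% in the wildtype, and the panels of Obox2 and Obox1 show the opposite order, while Obox7 overlaps.

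On the chromosome, the members stood beside a gene that fell deeply. Of the 26 annotated genes within the cluster or among the 10 on each side that carry no Obox name, 13 had a count row, 5 were tested and 1 was called, against 11.2% of all genes. That gene was Selenow, which encodes a small selenoprotein and lies 77.5 kb beyond the end of Obox6, measured to its nearer edge (chr7:15917208-15922371). Selenow was present at 3.86, 1.82 and 2.23 CPM in the knockout and at 194, 137 and 130 CPM in the wildtype (log2 fold change -5.87, SE 0.333, adjusted p = 0.000164, edgeR), and it was called with any 1 library left out. Without wildtype replicate 3, Bicra, which encodes a chromatin remodelling subunit, was also called lower (-1.06, adjusted p = 0.0371, edgeR), making 2 of 6 tested neighbours beside 2.77% of all genes lower. Obox6, the member nearest to it, did not move beyond its spread. Crx and Crxos, the homeobox genes between Obox6 and Selenow, had 4 counts and 1 count over all 6 libraries and were not tested.

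**Figure D5:**
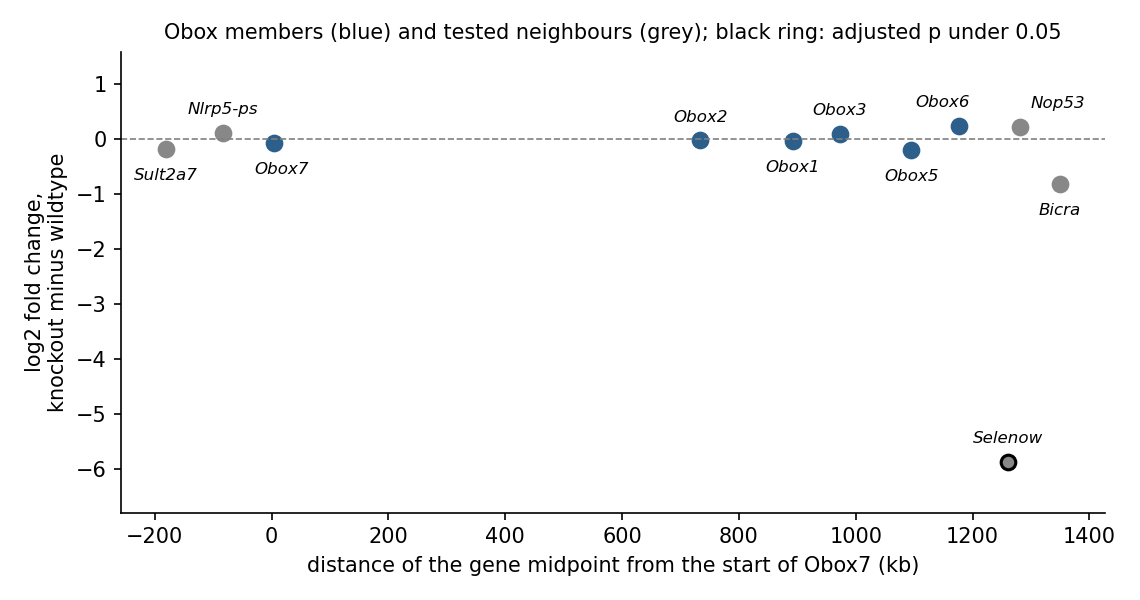
Fitted log2 fold change, knockout minus wildtype (y axis), of the Obox members (blue) and the tested neighbouring genes (grey) by the distance of each gene's midpoint from the start of Obox7 (x axis, kb). The members lie between -0.19 and 0.25, and Selenow, ringed in black as called, lies at -5.87.

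Other genes related to the members by family or by role mostly did not pass the test. Of 11 paired-like homeobox relatives, 2 had enough counts to be tested, Otx1 and Gsc, and 0 were called. Of 16 other homeobox genes that oocytes express, 15 were tested and 0 called, beside 11.2% of all genes. Without wildtype replicate 1 it was 2 higher and 1 lower, beside 34.4% of all genes called in either direction. Nobox, a factor required for follicle growth, stood at 947 ± 44.2 CPM in the knockout and 870 ± 80.8 CPM in the wildtype (log2 fold change 0.12, adjusted p = 0.529, edgeR). Lhx8, another such factor, stood at 435 ± 14.6 and 395 ± 59.0 CPM (0.14, adjusted p = 0.537). The medians of the log2 fold change were 0.16 over the tested paired-like relatives and -0.12 over the other homeobox genes.

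Among 18 regulators of embryonic genome activation, all tested, 1 was called higher, beside 5.87% of all genes, and without wildtype replicate 1 it was 1 higher and 1 lower, beside 34.4% in either direction. Dppa4, which encodes a chromatin protein that acts upstream of early embryonic genes, stood at 28.7, 29.9 and 30.9 CPM in the knockout and 9.51, 13.3 and 14.7 CPM in the wildtype (log2 fold change 1.26, SE 0.179, adjusted p = 0.00625). The median over this list was 0.04. Among 22 genes known for a burst of transcription in the cleaving embryo, the stage at which Obox proteins are known to act, 9 were tested and 2 were called, both higher, beside 5.87% of all genes. Zscan4d rose from 2.26, 4.05 and 3.75 CPM in the wildtype to 11.2, 10.4 and 13.3 CPM in the knockout (1.81, SE 0.244, adjusted p = 0.00524). Usp17lb rose from 0.192, 0.270 and 0.0915 CPM to 1.59, 1.23 and 1.19 CPM (2.80, SE 0.374, adjusted p = 0.00512). Both belong to families of near-identical copies, so which copy the reads came from is uncertain. Usp17lb had enough counts to be tested only through its knockout libraries, where it was high, so its call rests in part on the filter. The median over the 9 tested genes was 0.83, which includes Usp17lb and leaves out the listed genes with too few counts. Without wildtype replicate 1 the list had 4 higher and 1 lower of 10 tested, beside 16.7% and 17.7% of all genes.

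Markers of other ovarian cells summed to far less than the oocyte markers, though not all were low, Pecam1 being the highest. The 14 granulosa and cumulus cell markers summed to 61.1 to 90.3 CPM in the knockout libraries and 71.1 to 87.4 CPM in the wildtype. Ptx3 was at 0. Of 13 tested 0 were called, beside 11.2% of all genes. Without wildtype replicate 1 it was 2 higher and 1 lower, beside 16.7% and 17.7% of all genes. The 8 theca and stroma markers summed to 3.86 to 6.20 and 2.93 to 6.24 CPM, with 0 of 2 tested called, beside 11.2% of all genes. The 8 blood, immune and endothelial markers summed to 117 to 121 CPM in the knockout and 36.6 to 82.2 CPM in the wildtype, with Cdh5 and Hba-a1 at 0. Pecam1 made up most of that sum, at 103, 105 and 105 CPM in the knockout and 30.4, 75.6 and 75.8 CPM in the wildtype (adjusted p = 0.143, edgeR; called higher without wildtype replicate 1, adjusted p = 0.000207). Of 3 tested 1 was called, beside 11.2% of all genes. It was Cd68 (10.6 ± 0.407 against 2.10 ± 1.33 CPM, adjusted p = 0.0109, edgeR; 0.0522 to 0.0628 without any 1 knockout library). The part of this last difference in the Obox values was not tested.

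The genes whose levels followed the summed Obox count most closely over the 6 libraries were picked by Pearson's correlation of log2 CPM among 8379 genes of at least 10 CPM on average, as a description. They were Arl4a (r = 0.989), Vdac3 (0.982), Il17f (0.979), Phax (0.979) and Fbxw27 (0.970), and 51 genes exceeded 0.9. With 6 libraries that share depth and scaling, such values are reached by many genes. None of these 5 was called between genotypes, and their log2 fold changes lay between -0.20 and -0.02. They were picked to follow a sum that overlapped between genotypes, so small differences are built into the choice.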

How the data were processed

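Counts per gene, made by the authors from single-end SMARTer and NexteraXT libraries of pooled oocytes, were used as deposited. Per the submitters' processing notes, STAR 2.7.11a, featureCounts 2.0.3 and GRCm38.p6 were used. The counting annotation, strand setting and treatment of reads with several matches are not stated there or in the labels. Of 27179 Entrez identifiers, 25275 were named from RefSeq and 18 from GENCODE M21, and 1886 stayed unnamed. Genes kept by filterByExpr (minimum count 10) were tested, after trimmed-mean (TMM) scaling, with edgeR 4.0.16 (quasi-likelihood F test, Benjamini-Hochberg adjustment, R 4.3.3). Alternatives used DESeq2 1.42.0, limma 3.58.1, other scalings and filters, the replicate block and each library left out. Coding sequences were aligned with MAFFT 7.526 and pairs with Biopython 1.88. A count of 1 has no molecular identifier behind it. The test was tested on simulated data. The members, gene lists and rule for named genes (all members, Prdm10, called members of related lists, called neighbours, the 5 genes of most like pattern) were chosen with earlier results of these data known, and genes named beside a list's count, such as Nobox, Lhx8, Otx1, Gsc, Crx, Crxos, Bicra and Pecam1, were named after their values were seen.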

Additional observations from a re-analysis of the deposited data

How the results depend on the processing

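Genes called between genotypes numbered 1676. The count was 1038 with at least 5 CPM in 3 libraries, 2671 with the DESeq2 Wald test, 5943 with limma-voom and sample quality weights, and 357 to 5199 with each library left out. The highest count came without wildtype replicate 1, and without any 1 knockout library it was 357 to 400. With the replicate block it was 537; same-numbered libraries did not deviate together (correlations -0.10, -0.02 and -0.11), so the numbers were not taken as pairs. Of the 6 members 0 were called, with 1, Obox5, under sample quality weights (-0.20) and 0 to 1 with each library left out; the replicate block called 0. The direction of values near 0 changed. Upper quartile scaling gave Obox2 at 0.00089, and sample quality weights gave Obox6 at -0.013. With each library left out, Obox1 ranged from -0.089 to 0.050, Obox2 from -0.11 to 0.061, Obox3 from -0.10 to 0.44, Obox5 from -0.27 to -0.11, Obox6 from -0.10 to 0.53 and Obox7 from -0.12 to 0.016. Obox3 and Obox6 have no value under the 5 CPM filter. The cause of these shifts was not tested. The summed count of all members stayed below 0 in each alternative run, from -0.15 to -0.002. Re-estimating the scaling after summing, a choice made after seeing the data, moved the sums by -0.022 to -0.023.

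Wildtype levels moved with the length used. Per kilobase of the shortest transcript they were 1310 for Obox1, 2247 for Obox2, 2211 for Obox5, 431 for Obox7 and 0.834 for Obox3. Per coding kilobase they were 1595, 3854, 1717, 362 and 0.437, and per unique position, a choice made after seeing the data, 1646, 3367, 970, 209 and 0.339. Unique shares rose with longer windows: at 75 bases to 52.8% in Obox1, 47.4% in Obox2, 87.8% in Obox3, 94.0% in Obox5, 98.7% in Obox6 and 93.5% in Obox7, and at 100 bases to 57.7%, 52.8%, 91.1%, 98.2%, 100% and 97.7%. The search of the whole genome was not run. Leaving libraries out of the shares, and lists without wildtype replicate 1, were also chosen after seeing the data.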
